A study of Mus musculus with 15 samples.

Results

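Ribosome-protected RNA of M2 eggs, the ovulated eggs that wait in metaphase of the second meiotic division, was compared between female mice with both copies of Eif4e1b knocked out (KO) and heterozygous females (Het), which keep 1 intact copy. The comparison was chosen by its labels, as the 2 M2 KO and the 2 M2 Het libraries, 4 of the 15 libraries of the study. The other 11 were of PN5 zygotes and early 2-cell embryos from the same kinds of mothers. All donors were of the B6D2F1 strain and carried Rpl22 HA, an epitope-tagged protein of the large ribosomal subunit. There was no wild-type group, so the controls also carry 1 disrupted Eif4e1b allele. About 200 eggs were pooled for a library, the lysate was digested with RNase I, and anti-HA beads captured the tagged ribosomes. Whether the 2 libraries of a genotype came from separate females is not in the labels. The p-values therefore cover no more than the spread from library to library, which may be technical. The sources used here give neither the donors' ages nor the driver that switches on the tag. The M2 libraries held counts in 2319 of the 21443 protein-coding genes of the table, and the mRNAs described here are these 2319.

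Most eukaryotic mRNAs are translated after eIF4E binds their 5' cap and eIF4G joins it to the small ribosomal subunit. Eif4e1b encodes an eIF4E relative made almost only in germ cells, and proteins such as 4E-T, GIGYF2 and the 4E-BPs bind eIF4E-type proteins and can hold back translation. Growing oocytes stock maternal mRNAs, many of them stored untranslated, and eggs and early embryos then live on them while transcription is off. The study's title ties eIF4E1b to the translation of maternal mRNAs and to the start of zygotic transcription.

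Few of the recovered fragments came from mRNA, and this limited every gene-level value that follows. Library totals were 409584 and 1039092 counts for the Het libraries 1 and 2, and 388676 and 1066196 for the KO libraries 1 and 2. Cytosolic rRNA took 81.8% to 91.9% of them and mitochondrial genes 5.53% to 11.6%. Protein-coding genes outside the mitochondrion took 20907 and 22260 counts in Het and 5997 and 47397 counts in KO. The KO libraries were therefore the shallowest and the deepest of the 4, and KO library 2 alone held 49.1% of all protein-coding counts. As a share of the library these counts were 5.10% (95% Wilson interval 5.04 to 5.17) and 2.14% in Het, and 1.54% and 4.45% in KO. The groups overlapped, and the ratio of the KO to the Het geometric mean share was 0.792. The two-sided exact permutation test gave p = 0.667, where 2 against 2 libraries can give no p under 0.333. That ratio was 1.22 without Het library 1 and 1.34 without KO library 1. Of the counts left once rRNA and mitochondrial rows were dropped, protein-coding genes took 77.2% and 84.5% in Het and 46.9% and 73.9% in KO. On this denominator both KO libraries were lower, with a ratio of geometric means of 0.729. The exact permutation p was 0.333, the smallest that 2 against 2 can give. The single row CT010467.1, which has no biotype, took 40.8% and 10.5% of these left counts in KO and 1.20% and 3.73% in Het. Its part in the lower KO shares was not tested. Intervals and floors given here cover counting error only, because the reads carry no molecular identifiers and PCR copies cannot be told from separate molecules. In bulk pools, fewer ribosomes on an mRNA, less of the mRNA and fewer cells carrying it cannot be told apart.

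Eif4e1b itself, on chromosome 13 from 54783994 to 54788459 in GRCm38.p6, had 0 counts in all 15 libraries, Het libraries included. The targeted gene therefore gave no check of the genotype labels at this depth. A count of 0 allows up to 3 counts, which was 154 and 183 CPM in the Het libraries and 555 and 79.7 CPM in the KO libraries. CPM is the usual scaled count, here relative to the summed counts of the tested genes after TMM scaling.

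Markers of the egg itself were almost absent from the recovered footprints. Only 7 of 36 oocyte and egg markers had a count, with 66 counts in all, of which 4 and 18 were in the Het libraries and 3 and 41 in the KO libraries. The histone-binding nucleoplasmin Npm2 had 30 counts, all in KO library 2. Nlrp5, an essential maternal factor also called Mater, had 9 counts in Het library 2 and 5 in KO library 2. Zp1, Zp2 and Zp3, which encode the zona pellucida, the growth factors Gdf9 and Bmp15, and the maternal factors Ooep, Tle6, Padi6, Dppa3 and Btg4 were at 0 in all 4 libraries. By these defining markers the labelled cell type was hardly visible in any M2 library. Markers of cumulus and granulosa cells, the somatic cells around the oocyte, gave 377 counts over 8 of 35 genes, with 212 and 48 counts in Het and 3 and 114 in KO. Cyp11a1, the first enzyme of steroid synthesis, held 174 of them. Blood and sperm markers were at 0.

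No gene was called as different between KO and Het M2 eggs by edgeR's quasi-likelihood test with Benjamini-Hochberg adjustment. Of 533 genes tested 0, or 0%, had an adjusted p under 0.05, and the smallest adjusted p was 1. 10 genes, or 1.88%, had an unadjusted p under 0.05, where 26.65 would be reached by chance. DESeq2 called 2 genes, Nasp and Dek, each counted in 1 library, and limma-voom called 0 with 22 at an unadjusted p under 0.05. Of the 457 protein-coding genes among those tested, 213 (46.6%) had a higher fitted value in KO and 220 (48.1%) a lower one, and the other 24 had no M2 count. The median standard error (SE) of a log2 fold change was 2.17, so that a difference of several fold lay within the error for most mRNAs. Both KO libraries lay above both Het libraries for 43 genes (9.41%) and below them for 54 (11.8%). This split depended on the scaling. With the totals of the tested genes in place of TMM it was 19 above and 85 below. Those totals gave 157 genes (34.4%) higher and 276 (60.4%) lower fitted values. The median log2 fold change over all 533 tested genes was then -0.34. The totals include the row CT010467.1, which took a larger part of the counts in both KO libraries than in either Het library. With DESeq2 size factors the split was 42 above and 62 below, and with protein-coding rows alone it was 43 and 60 of 464 genes. The counts of genes above or below given in this text use TMM and are to be read against the TMM background, and the shares of protein-coding counts use neither scaling.

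**Figure D1:**
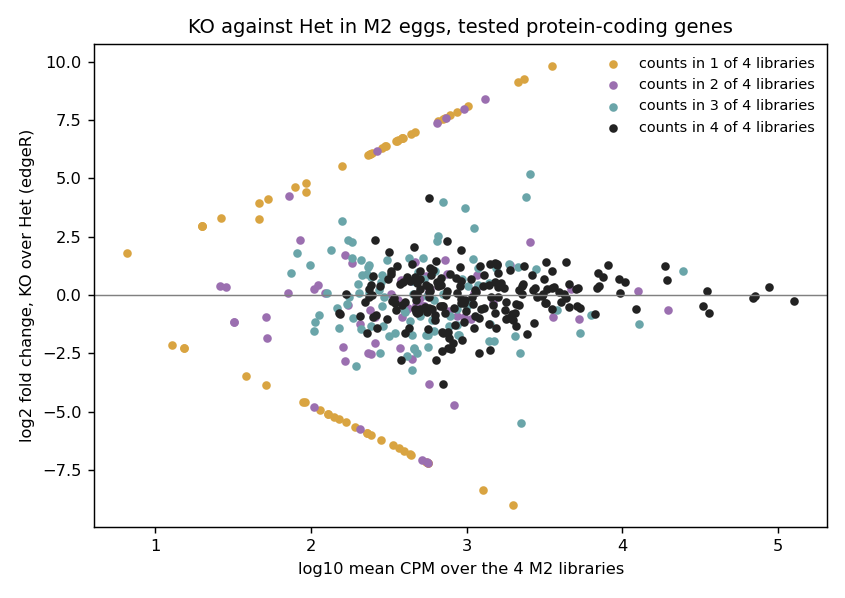
The log2 fold change of KO over Het from edgeR (vertical axis) is plotted against the log10 mean CPM over the 4 M2 libraries (horizontal axis) for the tested protein-coding genes, coloured by how many of the 4 libraries counted the gene. The 198 genes counted in every library centre on a median of -0.05, and the outer arms of the plot are genes with 0 counts in both libraries of a genotype.

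The mRNAs that could be compared in every library were few but held most of the counts. Of the 2319 genes, 1233 (53.2%) had counts in 1 M2 library, 547 in 2, 281 in 3 and 258 in all 4. The 258 held 63.9% of the protein-coding counts and the 1233 held 9.62%. Among the 258, 198 were tested, and their median log2 fold change was -0.05 with a median SE of 1.71. In 140 of the 198 the log2 fold change lay within 1 of 0. The groups did not overlap for 51 of them (25.8%), with both KO libraries above for 24 and below for 27. Smarca4, the catalytic BRG1 subunit of the SWI/SNF remodeller and a maternal-effect gene, had the smallest unadjusted p of the 198. Its counts were 74 and 15 in Het and 4 and 8 in KO, and both KO values (740 and 213 CPM) were under both Het values (3790 and 915 CPM). The log2 fold change was -2.37 (SE 1.37), with an unadjusted p of 0.103 and an adjusted p of 1 by edgeR.

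Libraries of the same genotype were no more alike than libraries of different genotypes. Over the 533 tested genes, Pearson's r of log2(CPM + 1) was 0.434 between the Het libraries and 0.413 between the KO libraries, and 0.422 to 0.510 across genotypes. This correlation is across genes, which are not independent replicates. Over the 198 genes the median absolute log2 difference was 1.13 within Het, 1.01 within KO and 0.80 to 1.09 across genotypes. By detection, the Het libraries shared 526 genes (41.0% of library 1 and 61.0% of library 2) and the KO libraries 376 (75.7% and 24.1%). Across genotypes, Het library 1 shared 800 genes with KO library 2 and 343 with KO library 1, and Het library 2 shared 586 and 307. These overlaps follow the unequal number of genes in each library. A count was found for 1282 and 863 protein-coding genes in Het and for 497 and 1560 in KO. The KO to Het ratio of geometric means was 0.837 (two-sided exact permutation p = 1, smallest possible 0.333). At the depth of the shallowest library, 5997 counts, the expected numbers were 886 and 567 in Het and 497 and 861 in KO, so the groups still overlapped.

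A small set of abundant mRNAs dominated both genotypes. The 10 highest genes of a library took 38.8% and 50.7% of its protein-coding counts in Het and 56.1% and 34.9% in KO. These are shares of counts, not corrected for transcript length, and they are compared between libraries and not between genes. Ncl, the mRNA of the nucleolar protein nucleolin, led every library with 2283 and 2588 counts in Het and 715 and 3702 in KO. It made up 11.3% ± 0.5 of the protein-coding counts in Het and 9.87% ± 2.91 in KO (mean ± SD, n = 2 each), and the KO libraries lay on either side of the Het pair. Its log2 fold change was -0.25 (SE 0.99).

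**Figure D2:**
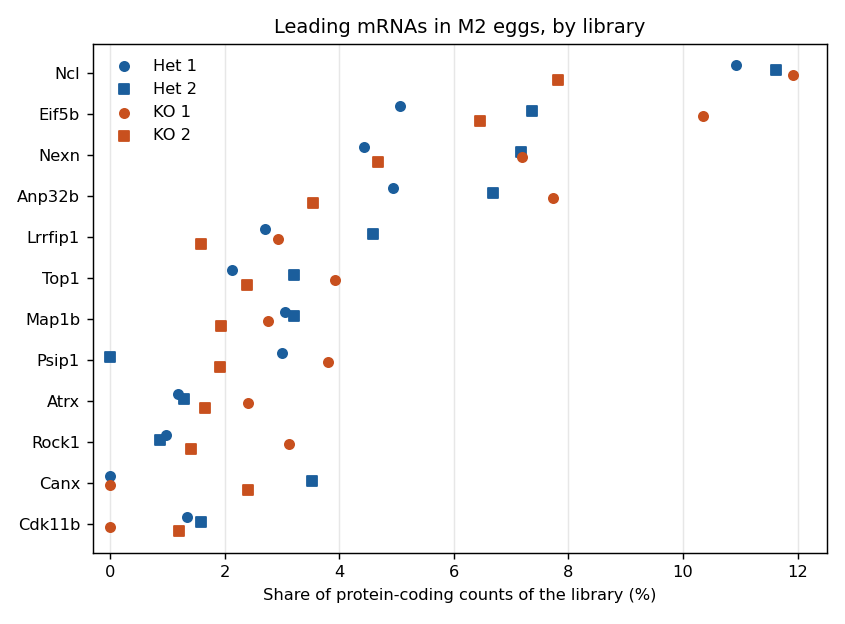
Each row is 1 of the mRNAs with the highest mean share of the protein-coding counts, the horizontal axis gives that share in percent of the library, and each point is 1 of the 2 Het or 2 KO libraries of M2 eggs. Ncl lies between 7.81% and 11.9% in the 4 libraries. Canx sits at 0 in library 1 of both genotypes, and Psip1 in Het library 2, while high in the others.

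The translation factor Eif5b, which joins the ribosomal subunits at the start codon, was the next of these mRNAs, at 6.21% ± 1.63 in Het and 8.40% ± 2.76 in KO. Its counts were 1057 and 1640 in Het and 621 and 3059 in KO, and the ranges of share overlapped. Nexn, which encodes the actin-binding protein nexilin, had 926 and 1597 counts in Het and 431 and 2214 in KO, with a log2 fold change of -0.06 (SE 1.22). Anp32b, an acidic histone chaperone, had 1031 and 1488 counts in Het and 464 and 1683 in KO. Its log2 fold change was -0.14 (SE 2.04). Top1, which relaxes supercoiled DNA, had 446 and 714 counts in Het and 235 and 1133 in KO, at a log2 fold change of 0.15 (SE 1.68). For these mRNAs the genotypes were within the spread of the libraries. With totals in place of TMM the signs of Eif5b (-0.14), Top1 (-0.34) and, among genes described further on, Luc7l3, Ktn1, Chd4 and Wdr43 turned, and both KO values lay below both Het values for Ncl, Nexn and Anp32b.

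The other abundant mRNAs showed several patterns. Atrx, a remodeller that places histone H3.3, had 248 and 286 counts in Het and 144 and 787 in KO, and both KO values (26645 and 20909 CPM) were above both Het values (12701 and 17453 CPM). Its log2 fold change was 0.66 (SE 0.99). Rock1, a kinase of the actomyosin cytoskeleton, had 203 and 194 counts in Het and 187 and 670 in KO, with the KO values again above and a log2 fold change of 1.24 (SE 1.27). Map1b, a microtubule-associated protein, went the other way, with 639 and 714 counts in Het and 165 and 921 in KO and a log2 fold change of -0.47 (SE 1.18). Lrrfip1, a nucleic acid binding protein, had 564 and 1021 counts in Het and 176 and 749 in KO, and its groups overlapped. With totals in place of TMM the groups overlapped for Atrx, stayed apart for Rock1 and Map1b, and lay apart, with KO lower, for Lrrfip1. None of these passed the test, with an adjusted p of 1 by edgeR for each.

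For other mRNAs the 2 libraries of the same genotype disagreed. Canx, the calnexin chaperone of the endoplasmic reticulum, had 0 and 783 counts in Het and 0 and 1145 in KO. Acbd3, a Golgi scaffold, likewise had 0 and 394 counts in Het and 0 and 1003 in KO. Psip1, a chromatin reader, had 628 and 0 counts in Het and 228 and 909 in KO. Library number 1 of both genotypes lacked Canx and Acbd3, and library number 2 of both held them. Cdk11b, a kinase of splicing and mitosis, had 280 and 354 counts in Het and 567 counts in KO library 2, and was at 0 in KO library 1. Of the 546 genes with at least 20 counts over the 4 libraries, 286 (52.4%) were at 0 in KO library 1, 193 (35.3%) in Het library 2, 128 (23.4%) in Het library 1 and 35 (6.41%) in KO library 2, an order that is the order of depth except between the Het libraries, whose depths were close.

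Some mRNAs were counted in both libraries of 1 genotype and in neither of the other. Of the 2319 protein-coding genes with M2 counts, 36 had counts in both KO libraries and no Het library. Another 69 had counts in both Het libraries and no KO library. The first group needs a count in KO library 1, which held 5997 protein-coding counts and 497 genes. The 2 numbers therefore do not measure mRNAs gained or lost in KO. Of the tested genes, 6 were seen in both KO libraries alone and 5 in both Het libraries alone. The 2 lowest unadjusted p-values among protein-coding genes were in this set, and each of its genes rested on under 100 counts. The set was picked by the same counts that gave the folds and p-values below, so these are no separate support for a difference. Sart3 and Ubtfl1 also passed the low-count filter through their counts in the M2 KO libraries. Zfhx3, seen in Het eggs alone, passed it through M2 Het library 1 and early 2-cell Het library 1.

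Sart3, a recycling factor of the U4/U6 spliceosomal particle, had 11 and 68 counts in KO and 0 in Het. Against a floor of 3 counts over the Het group it was at least 23.0-fold higher in KO (edgeR unadjusted p = 0.0435, adjusted p = 1). It was sparse in zygotes too, with counts in 1 of 6 PN5 libraries. Las1l, which processes the spacer of pre-rRNA, had 9 and 49 counts in KO, at least 17.8-fold higher (unadjusted p = 0.0258). Ubtfl1, an HMG-box protein of preimplantation embryos, had 7 and 48 counts in KO, at least 15.4-fold higher (unadjusted p = 0.0257). Scaled for depth, the 2 KO libraries were close for Ubtfl1, at 1295 and 1275 CPM, and for Sart3, at 2035 and 1807 CPM. Eif4g1, the scaffold that cap-bound eIF4E recruits, had 2 and 26 counts in KO and 0 in Het, at least 6.35-fold higher (unadjusted p = 0.0577). Dkc1, the pseudouridine synthase dyskerin, had 1 and 4 counts in KO only.

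On the Het side, Rai14, an actin-binding ankyrin-repeat protein, had 34 and 8 counts in Het (1741 and 488 CPM) and 0 in KO. Its Het mean was 15.99-fold above a floor of 3 counts over the KO group. Zfhx3, a zinc-finger homeobox factor, had 38 and 2 counts in Het (1946 and 122 CPM), a mean 14.8-fold above that floor. A 0 in KO library 1 alone allows 555 CPM, above both genes in Het library 2, so neither fold is a lower bound for each library. By edgeR the unadjusted p of Zfhx3 was 0.0407. No other protein-coding gene with a lower KO value had an unadjusted p under 0.05, so that 1 gene (0.219%) was lower and 7 (1.53%) were higher at that threshold. Nolc1, a nucleolar phosphoprotein, had 3 and 11 counts in Het, and Pus7, a pseudouridine synthase, had 7 and 1.

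**Figure D3:**
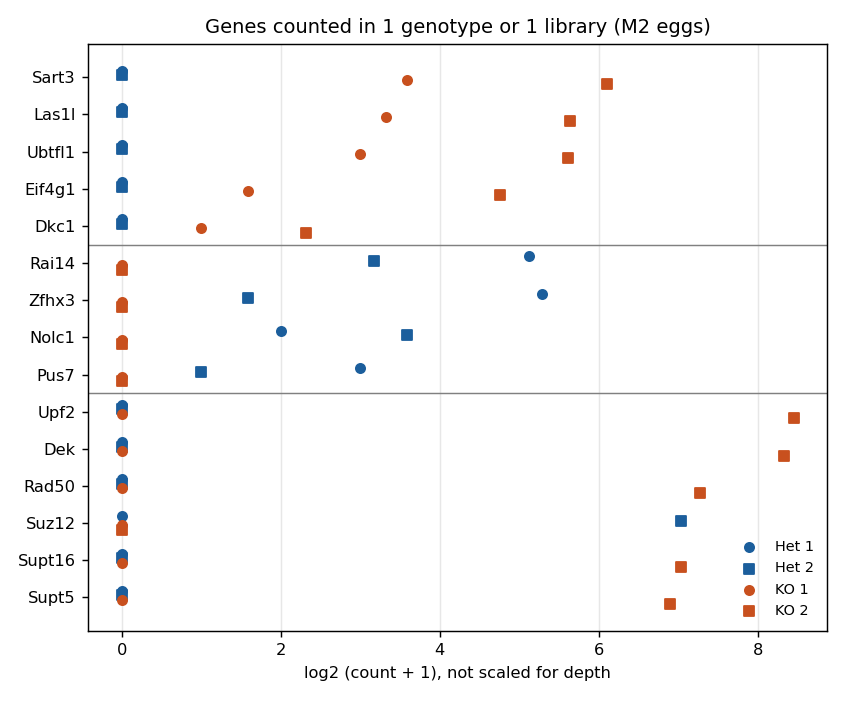
Counts of genes seen in 1 genotype or mostly in 1 library are plotted per library as log2(count + 1), not scaled for depth, with 1 row per gene and 1 point per library. The rows from Sart3 to Dkc1 have points above 0 only for KO, those of Rai14 and Zfhx3 only for Het, and Upf2 and Dek have 1 point above 0, that of KO library 2.

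Counts in a single library gave fitted fold changes as large as these. Of the tested genes at 0 in both Het libraries, 33 were counted in KO library 2 alone and 3 in KO library 1 alone. Upf2, a nonsense-mediated decay factor, had 350 counts, Dek, a chromatin architectural protein, 321, the break-repair protein Rad50 154, the FACT subunit Supt16 130, the elongation factor Supt5 118 and the remodeller subunit Bptf 58, all in KO library 2. Among genes at 0 in KO, 14 were counted in Het library 1 alone and 14 in Het library 2 alone. Suz12, a core Polycomb subunit, had 130 counts and the histone chaperone Nasp 15, all in Het library 2, and the SWI/SNF subunit Brd9 had 43, all in Het library 1. The 2 genes that DESeq2 called were of this kind, Dek higher in KO (DESeq2 adjusted p = 0.00583) and Nasp lower (DESeq2 adjusted p = 0.00216), and edgeR gave both an adjusted p of 1.

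Cyp11a1 had the second smallest unadjusted p among genes lower in KO. It had 160 and 9 counts in Het and 0 and 5 in KO, a log2 fold change of -5.51 (SE 2.56, unadjusted p = 0.0553). Library 1 of Het held most of these counts. Without Cyp11a1, the cumulus and granulosa markers took 52 and 39 counts in Het and 3 and 109 in KO, a mean of 0.212% ± 0.0520 of the protein-coding counts in Het and 0.140% ± 0.127 in KO (SD, n = 2 each), and the groups overlapped. Of the other members, Fst had 10 and 25 counts in Het and 1 and 19 in KO, Gja1 had 8 and 9 in Het and 1 and 29 in KO, Inhba had 50 counts in KO library 2 alone, and Grem1 had 22 in Het library 1 alone. The part of follicle-cell RNA in the gene differences was not tested.

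The gene lists are described next by role, by their summed share of protein-coding counts and by how many tested members had higher or lower fitted values in KO. No member of any list passed edgeR's test, and over all 457 tested protein-coding genes the median log2 fold change was 0.00. Cap-binding proteins and eIF4E partners took 0.412% ± 0.0342 in Het and 0.244% ± 0.133 in KO (mean ± SD, n = 2 each). Of 22 genes 9 had M2 counts, Eif4e itself was at 0, and 1 of 3 tested members had a higher and 2 a lower value in KO. Gigyf2, a repressor that acts with the cap-binding protein 4EHP, had 65 and 70 counts in Het and 4 and 94 in KO, and both KO values (740 and 2497 CPM) were under the Het values (3329 and 4272 CPM), with a log2 fold change of -1.20 (SE 1.14). Eif4g2, an eIF4G relative that works without cap-bound eIF4E, had 12 and 18 counts in Het and 2 and 16 in KO, again with both KO values lower and a log2 fold change of -1.08 (SE 1.56).

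Translation factors took 6.13% and 7.75% in Het and 11.2% and 8.16% in KO, so both KO libraries were above both Het libraries. Of 8 tested members 6 had higher and 1 a lower value in KO, with a median log2 fold change of 0.56. With totals in place of TMM, 4 had higher and 3 lower values. Most of that share was Eif5b, and the remainder was 1.08% and 0.382% in Het and 0.884% and 1.70% in KO, which overlapped. Eif3a, the largest subunit of the eIF3 complex, had 136 and 68 counts in Het and 44 and 409 in KO, with both KO values higher under TMM, though not with totals, and a log2 fold change of 0.77 (SE 2.04). Cytosolic ribosomal proteins took 0.344% and 0.135% in Het and 0.350% and 1.25% in KO. Only 3 of 81 were tested, and all 3 had higher values in KO. Rpl4 had 21 and 10 counts in Het and 7 and 116 in KO (log2 fold change 1.38, SE 1.27), Rps14 had 26 and 5 in Het and 2 and 138 in KO, and Rps25 had 1 and 1 in Het and 2 and 68 in KO. Ribosomal protein genes have many processed pseudogenes that can share reads, so these counts are uncertain.

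Genes of the nucleolus and ribosome biogenesis took 12.3% ± 0.672 in Het and 11.6% ± 2.58 in KO, most of it Ncl. Of 20 tested members 13 had higher and 6 lower values in KO, and the median was 0.43. Both KO libraries were above for 5 and below for 2, against 9.41% and 11.8% of all tested protein-coding genes. Ncl was then left out, after its values were seen. The remaining share was 0.942% and 1.19% in Het and 1.45% and 1.92% in KO, with both KO libraries above. This order was also seen in other lists without their leading mRNAs, as given below. With totals in place of TMM, 9 had higher and 10 lower values, and both KO libraries were above for 2 and below for 3. Las1l and Dkc1, described above, are 2 of the 5. Wdr43, a small-subunit processome protein, is another, with 39 and 30 counts in Het and 15 and 97 in KO. Its log2 fold change was 0.48 (SE 1.38). Nvl, also of the 5, had 0 and 3 counts in Het and 1 and 14 in KO. Its lower KO value (185 CPM) was barely above its higher Het value (183 CPM). Bms1, a GTPase of small-subunit assembly, had 29 counts in Het library 2 and 316 in KO library 2 and was at 0 in library 1 of both.

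Maternal mRNA storage, tailing and decay genes took 0.236% ± 0.112 in Het and 0.748% ± 0.917 in KO, and the KO libraries lay at both ends of the 4. Tut4, which adds uridines to mRNA tails, had 9 and 26 counts in Het and 0 and 101 in KO. Maternal-effect genes took 0.971% and 0.777% in Het and 0.567% and 0.749% in KO, so both KO libraries were lower. Of 6 tested members 2 had higher and 4 lower values. Both KO libraries were below for Smarca4 and Ythdc1, against 11.8% of all tested protein-coding genes. Ythdc1, a nuclear reader of methylated adenosine, had 69 and 61 counts in Het and 15 and 110 in KO, with a log2 fold change of -0.35 (SE 1.23). Dnmt1, the maintenance DNA methyltransferase, had 11 and 21 counts in Het and 12 and 42 in KO, and its groups overlapped.

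Genes of the spindle, kinetochore, cohesin and cell cycle took a larger share in both KO libraries than in either Het library. They made up 2.00% and 2.29% in Het and 3.28% and 3.67% in KO. Of 18 tested members 13 had higher and 5 lower values, with a median log2 fold change of 0.41, and both KO libraries were above both Het libraries for 6 (against 9.41% of all tested protein-coding genes) and below for 0. Cenpe, a kinetochore motor, had 72 and 95 counts in Het and 53 and 491 in KO, with a log2 fold change of 1.27 (SE 1.61). Smc4, a condensin subunit, had 99 and 74 counts in Het and 48 and 361 in KO, with a log2 fold change of 0.95 (SE 1.51). Cenpf, a kinetochore protein, had 38 and 47 counts in Het and 17 and 174 in KO, at 0.69 (SE 1.34). The other 3 were Incenp of the chromosomal passenger complex, Smc6 of the SMC5/6 complex and the cohesin subunit Stag1. None of the 6 passed the test (unadjusted p from 0.303 to 0.670). With totals in place of TMM, 9 members had higher and 9 lower values, and both KO libraries were above for 2, Cenpe and Stag1, and below for 1. The share without Cenpe and Smc4, chosen after their values were seen, was 1.19% and 1.53% in Het and 1.60% and 1.88% in KO. In the 3 Het and 3 KO PN5 libraries, which the M2 comparison did not use, the share was 2.54% to 2.74% in Het and 2.44% to 3.11% in KO, and the groups overlapped.

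**Figure D4:**
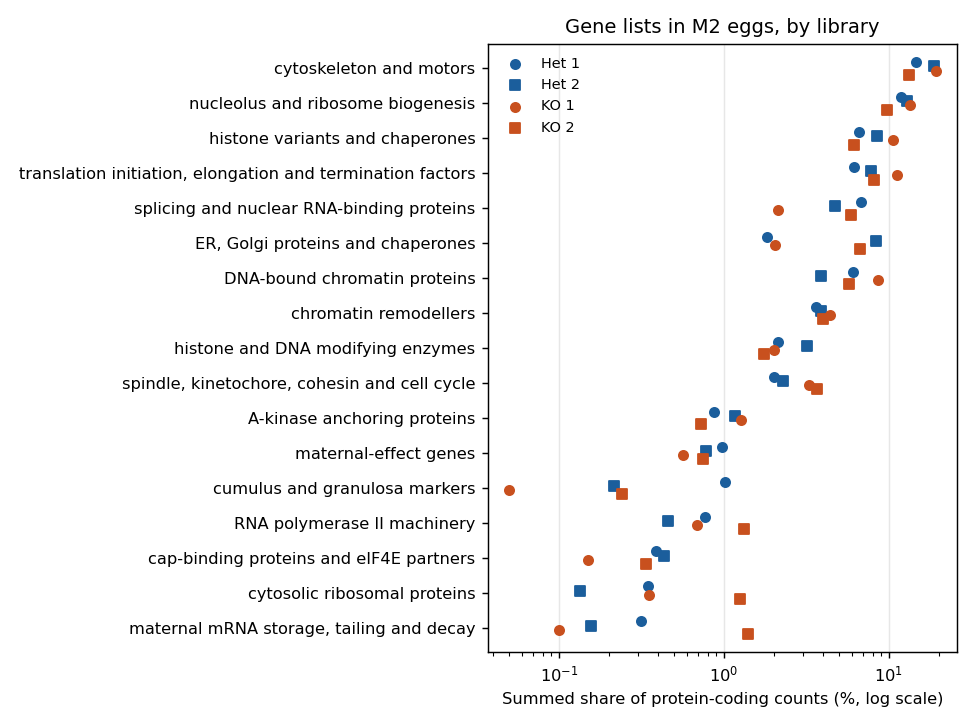
The summed share of the protein-coding counts (horizontal axis, percent, log scale) is given for each gene list with at least 3 tested members, 1 row per list and 1 point per M2 library. For the spindle and cell cycle list both KO points (3.28% and 3.67%) lie right of both Het points, and for cap-binding proteins the Het points lie close together with a wider KO pair.

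Chromatin remodellers took 3.72% ± 0.182 in Het and 4.20% ± 0.305 in KO, with 11 of 21 tested members higher and 9 lower. Smarca2, the BRM subunit of SWI/SNF, had 180 and 334 counts in Het and 53 and 364 in KO, with a log2 fold change of -0.60 (SE 1.26), and Chd4, the NuRD helicase, had 42 and 62 in Het and 19 and 137 in KO. Histone and DNA modifying enzymes took 2.12% and 3.18% in Het and 2.00% and 1.74% in KO, with both KO libraries lower. Of 24 tested members 8 had higher and 14 lower values, with a median of -0.58. Both KO libraries were below for 4 and above for 1, against 11.8% and 9.41% of all tested protein-coding genes. With totals in place of TMM it was 5 below and 0 above, against 18.6% and 4.16%. The 4 under TMM were the acetyltransferases Ep300 and Kat6a and the SET-domain genes Kmt2e and Setd5. Ep300 and Kmt2e were at 0 in KO library 1, where a 0 allows 555 CPM, above the 488 CPM of Ep300 in Het library 2. Kat6a had 11 and 27 counts in Het and 1 and 5 in KO, and Setd5 had 57 and 20 in Het and 1 and 19 in KO, at log2 fold changes of -2.79 (SE 1.81) and -2.49 (SE 1.80). The members with the most counts in that list had no common order. Ncor1, a corepressor that carries a histone deacetylase, had 73 and 92 counts in Het and 0 and 221 in KO, and the acetyltransferase Crebbp had 53 and 129 in Het and 32 and 58 in KO.

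Histone variants and chaperones were split between 6 higher and 4 lower of 11 tested, and DNA-bound chromatin proteins between 6 and 3 of 9. The histone chaperone list took 6.59% and 8.41% in Het and 10.6% and 6.16% in KO, and the groups overlapped. Without Anp32b, again left out after its values were seen, it took 1.65% and 1.72% in Het and 2.90% and 2.61% in KO. Most of that remainder was Atrx, with 248 of 346 and 286 of 383 counts in Het and 144 of 174 and 787 of 1238 in KO. Atrx is in this list and among the remodellers. Nap1l1, a nucleosome assembly protein, had 13 and 34 counts in Het and 26 and 67 in KO, with a log2 fold change of 1.25 (SE 1.79) and overlapping groups. Hmgn5, a nucleosome-binding protein, had 74 and 89 counts in Het and 30 and 199 in KO, at 0.23 (SE 1.34), a sign that turned with totals in place of TMM (-0.23).

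Splicing and nuclear RNA-binding proteins took 6.74% and 4.69% in Het and 2.13% and 5.92% in KO, and the groups overlapped. Of 33 tested members 14 had higher and 18 lower values, with a median of -0.37. Both KO libraries were below for 6 and above for 2, against 11.8% and 9.41% of all tested protein-coding genes. Rbm25, a regulator of splice-site choice, had 171 and 138 counts in Het and 24 and 194 in KO. Both its KO values (4441 and 5154 CPM) were under the Het values (8758 and 8421 CPM), with a log2 fold change of -0.84 (SE 1.14). Arglu1, an arginine-rich splicing regulator, had 59 and 48 counts in Het and 5 and 54 in KO, with both KO values lower and a log2 fold change of -1.31 (SE 2.31). Luc7l3, a U1-associated splicing factor, had 175 and 158 counts in Het and 48 and 410 in KO, at 0.09 (SE 1.66). For Sfpq, a paraspeckle protein, the counts were 77 and 40 in Het and 0 and 66 in KO.

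Cytoskeletal and motor genes were the largest list, at 14.6% and 18.7% in Het and 19.3% and 13.3% in KO. Of 31 tested members 14 had higher and 16 lower values. Nexn, Map1b and Lrrfip1 were left out after their values were seen. The remainder took 4.37% and 3.72% in Het and 6.44% and 5.09% in KO, with both KO libraries above. That order also held for the nucleolar, spindle and histone chaperone lists without their leading mRNAs. It did not hold for translation factors or for cumulus and granulosa markers. The A-kinase anchoring proteins, which tether protein kinase A, were 2 higher and 2 lower of 4 tested. Akap9, which sits at centrosomes and the Golgi, had 37 and 9 counts in Het and 17 and 74 in KO, with both KO values higher under TMM, though not with totals (log2 fold change 1.05, SE 1.39), and Akap12 had 52 and 91 in Het and 33 and 91 in KO, at 0.05 (SE 1.80) and with a sign that turned in most settings. The tested genes with higher and lower values were, for RNA polymerase II machinery, 5 and 2 of 7, and for proteins of the endoplasmic reticulum and Golgi and chaperones, 6 and 6 of 13. The endoplasmic reticulum list took 1.83% and 8.30% in Het and 2.03% and 6.63% in KO, a difference between library numbers 1 and 2 that Canx and Acbd3 carried. Ktn1, a kinectin that anchors motors to the endoplasmic reticulum, had 111 and 106 counts in Het and 42 and 308 in KO, with both KO values higher under TMM (log2 fold change 0.39, SE 1.59) and overlapping groups with totals. Genes of zygotic genome activation had 6 counts in all, pluripotency factors 7, proteasome subunits 64 and nuclear oxidative phosphorylation subunits 28, too few to compare.

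The same maternal genotypes were compared in PN5 zygotes, in other libraries. The difference between the KO effect in PN5 zygotes and that in M2 eggs was tested in the same edgeR fit, and 0 of 533 genes, or 0%, had an adjusted p under 0.05. Las1l, at 0 in both M2 Het libraries, had 30, 31 and 0 counts in PN5 Het and 16, 0 and 26 in PN5 KO. Zfhx3, seen only in Het eggs, had 12, 9 and 0 counts in PN5 Het and 0, 1 and 0 in PN5 KO. Of Sart3, Las1l, Ubtfl1, Zfhx3 and Rai14, all but Sart3 had counts in PN5 libraries of both genotypes. Cyp11a1 had 0 counts in all 3 PN5 Het libraries and 47, 0 and 340 in PN5 KO, the opposite of its order in M2 eggs. Its KO effect in PN5 exceeded that in M2 by 14.69 on the log2 scale with an unadjusted p of 0.00242 and an adjusted p of 1.00 by edgeR. No floor was applied to this value, and its size rests on the zeros in PN5 Het and on 0 and 5 counts in M2 KO. Dek, counted in KO library 2 alone in eggs, had 291, 405 and 0 counts in PN5 Het and 171, 0 and 0 in PN5 KO.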

How the data were processed

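Ribosome-protected fragments of the 4 M2 libraries were read from the table of estimated counts per gene that the authors deposited, which are whole numbers without scaling. The submitters' processing notes name the build GRCm38 and, as tools, StringTie 2.1.4, STAR 2.7.6a, deepTools 3.5.1 and cutadapt. The counting and the handling of reads that match several genes are not stated. Per the labels' protocols, digestion used 100 units of RNase I for 45 min, pulldown took 4 h, and 22 PCR cycles were run. The 3 rRNA and 37 mitochondrial rows were dropped before scaling. Biotypes came from RefSeq (GRCm38.p6), with 39101 genes matched by symbol, 164 by an older symbol and 16225 unmatched.

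Genes were tested with edgeR 4.0.16 in R 4.3.3 (quasi-likelihood, robust, TMM) on all 15 libraries in 6 groups, which share 1 estimate of the spread (9 residual degrees of freedom), after filterByExpr with a minimum count of 10. Adjustment was by Benjamini-Hochberg over all 533 genes at 0.05. SEs were worked back from the fold change and the F statistic. A fold against a group at 0 used a floor of 3 counts over the group. DESeq2 1.42.0, limma 3.58.1, other scalings, filters and left-out libraries were alternatives. Scripts were tested on simulated counts with less spread than these data, so that test does not measure the power of the comparison.

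The genes named were Eif4e1b, the 8 smallest p in each direction, the 12 largest shares, genes of 1 genotype, 6 genes mostly of 1 library and the 3 highest-count tested members of each of 23 lists; others named as apart within a list were picked after their values were seen. The comparison, its members and the lists were chosen with earlier results of these data known. Protein sequence features were planned and not run, as no protein table was used here. Some genes that these rules select are not reported here.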

Additional observations from a re-analysis of the deposited data

Results flagged for a closer look

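Among the 16 rows outside the protein-coding genes with at least 100 M2 counts, which the description of mRNAs did not use, 4 took a larger share of all counts in both KO libraries than in either Het library and 1, the pseudogene Gm5844, a smaller one. CT010467.1, known in the table by a clone name and without a RefSeq match or biotype, took a mean of 0.985% of all counts in M2 KO and 0.0868% ± 0.0108 (SD, n = 2) in M2 Het. Its share was 0.0791% and 0.0944% in the Het libraries and 1.34% and 0.629% in the KO libraries. Of the counts left after rRNA and mitochondrial rows were dropped, it took 40.8% in KO library 1 and 10.5% in KO library 2, against 1.20% and 3.73% in Het. Its part in the scaling of the other genes was not separated beyond 1 alternative, added after the data were seen, in which it and Mir6236 were dropped as well, and edgeR again called 0 genes. By edgeR its log2 fold change was 3.90 (unadjusted p = 0.0411, adjusted p = 1). In PN5 zygotes its share was 0.146%, 0.437% and 0.348% in Het and 0.0717%, 1.76% and 0.0501% in KO, so 1 KO library was above and the other 2 below every Het library. Rpph1, the RNA of RNase P, took a mean of 0.0133% in KO and 0.00141% in Het (edgeR unadjusted p = 0.0487, adjusted p = 1). Gm26109, a small nucleolar RNA, took 0.0145% in KO and 0.00147% in Het (edgeR unadjusted p = 0.0622). Gm25848, also a small nucleolar RNA, took 0.00818% in KO and 0.00282% in Het (edgeR unadjusted p = 0.145). No group of M2 libraries was large enough for a check of outlying samples.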

How the results depend on the processing

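No gene was called by edgeR in any setting, and DESeq2 called 2 (Dek and Nasp, 9 at an unadjusted p under 0.05). No gene was called for the PN5 minus M2 difference in any setting. The count of protein-coding genes whose groups did not overlap, 97 of 457, was 104 with totals in place of TMM (19 above, 85 below, against 43 and 54), 265 of 3794 without a low-count filter, 39 of 127 with a minimum mean of 20 counts, and 269 to 443 with each library left out in turn, where the filter admits more genes and 1 library stands for a group. The KO to Het ratio of the geometric mean protein-coding share, 0.792, ran from 0.467 (without KO library 2) to 1.34 (without KO library 1). It was 1.22 without Het library 1, and 0.729 with rRNA and mitochondrial rows out of the denominator. The same ratio for genes with a count, 0.837, ran from 0.473 to 1.48, by the same libraries, and was 1.02 without Het library 1.

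Of the 71 genes chosen by the rules, 34 kept the sign of their log2 fold change in every alternative that tested them (19 were tested in all 16, the other 15 were removed by the filter of some), 12 never reversed but had no fold change once the 1 library that counted them was left out, and 25 reversed; none had passed the test. Totals in place of TMM moved the median of all genes to -0.34 and turned signs, giving Eif5b -0.14, Top1 -0.34, Luc7l3 -0.36, Ktn1 -0.074, Hmgn5 -0.23, Akap12 -0.51, Chd4 -0.16, Brd3 -0.31, Wdr43 -0.018, Taf3 -0.36, Supt6 -0.29 and Gja1 -0.25. The other values that turned were Top1 -0.047, Acbd3 -0.050, Luc7l3 -0.073, Akap12 -0.16, Taf3 -0.0021 and Gja1 -0.10 with the rRNA and mitochondrial rows kept; Canx 1.30, Akap12 -0.066, Tut4 -0.077 and Psmd1 0.065 by limma-voom; Luc7l3 -0.066 and Akap12 -0.042 with a minimum mean of 20 counts; Akap12 -0.024 and Supt6 -0.11 by DESeq2; Akap12 -0.023 and Supt6 -0.066 with DESeq2 size factors in edgeR; Akap12 -0.029 with protein-coding rows alone; Akap12 -0.068 with no low-count filter; Akap12 -0.014 and Supt6 -0.025 with the M2 libraries alone. With 1 library left out, the ranges of those that turned were Eif5b -0.17 to 0.61, Nexn -0.62 to 0.31, Anp32b -0.65 to 0.010, Top1 -0.38 to 0.44, Canx -11.24 to 11.03, Psip1 -0.24 to 11.93, Acbd3 -10.25 to 10.84, Luc7l3 -0.46 to 0.37, Ktn1 -0.034 to 0.57, Hmgn5 -0.11 to 0.33, Ncor1 -8.98 to 0.46, Akap7 -1.30 to 0.27, Bms1 -6.50 to 9.18, Crebbp -1.66 to 0.057, Akap12 -0.64 to 0.34, Chd4 -0.17 to 0.55, Eif3c -7.05 to 8.59, Brd3 -0.53 to 0.49, Rps14 -1.57 to 2.79, Taf3 -0.77 to 0.67, Tut4 -6.76 to 1.66, Supt6 -7.02 to 7.37, Gja1 -1.69 to 0.81 and Psmd1 -1.27 to 1.25. The cause was not tested. Deviations of same-numbered M2 libraries correlated at -0.146, and in PN5 between -0.222 and 0.114, and the main fit did not pair the libraries. With 2 libraries a group both M2 numbers give the same value, which cannot exclude pairing. Library totals and the zeros of Canx, Acbd3 and Bms1 followed library number in M2 eggs, and those of Psip1 and Cdk11b did not. The replicate block called 0 genes (6 at an unadjusted p under 0.05) and gave turned values of Nexn 0.010, Akap12 -0.0080, Tut4 -0.95 and Gja1 -0.23; a crossed block, added after the data were seen, called 0 (7 at an unadjusted p under 0.05) and gave turned values of Nexn 0.011, Canx 0.33, Akap12 -0.0015, Tut4 -0.64, Gja1 -0.18 and Psmd1 0.16.

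Depth limits all of this: KO library 1 held 5997 protein-coding counts, and a count of 0 there allows 555 CPM.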
